A study of Mus musculus with 12 samples.

Results

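The 34 genes described here act on DNA interstrand crosslinks, the lesions that alkylating drugs such as busulfan make, and on the checkpoint that DNA damage sets off. They were listed by gene symbol, with earlier results of these data known. All 34 were found among the 17536 genes of the deposited table, and 32 of them were among the 13489 genes with enough reads to be tested. RNA was sequenced from the heart of ICR mice, an outbred stock, at an age of 10 weeks, in 12 libraries that fall into 4 groups of 3. The first group was labelled control and the second received busulfan at 20 mg/kg. The third received busulfan with FMT of a control kind (control-FMT), and the fourth busulfan with FMT of an AOS kind, labelled with AOS at 10 mg/kg (AOS-FMT). The abbreviations AOS and FMT are the submitters' own, the letter B in the labels of the FMT groups was read as busulfan, and no busulfan dose is labelled for these groups. The series names as its question the effect of FMT on a heart that busulfan had damaged.

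An interstrand crosslink ties both DNA strands together and blocks replication forks. In the Fanconi anaemia pathway a core complex of FANC proteins, with the E2 enzyme UBE2T, attaches ubiquitin to the FANCD2-FANCI clamp, nucleases then cut the crosslink out, translesion polymerases copy past the remnant, and homologous recombination mends the break. The kinases ATM and ATR sense the damage and pass the signal to CHEK2, CHEK1 and p53. Much of this pathway works in S phase, and cardiomyocytes of the adult heart rarely divide.

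Library totals lay between 11333600 and 14335700 estimated counts, and the 34 genes took 0.0264% to 0.0330% of them, or 3402 to 4728 counts. Cardiomyocyte markers, such as Myh6 and Tnnt2, summed to 87818 to 154223 CPM (counts scaled to library size). These are genes of the contractile apparatus of heart muscle. The libraries did not all carry the same tissue: 9 atrial markers summed to 2125 to 19298 CPM in control, 344 to 3327 CPM in busulfan, 504 to 4315 CPM in control-FMT and 1987 to 27168 CPM in AOS-FMT, and 14 liver markers reached 786 CPM in AOS-FMT replicate 3 against 55.9 to 225 CPM in the other libraries. Long transcripts were over-represented in control replicate 2, where the deviation of a gene from its mean over all libraries had a Spearman correlation with transcript length of 0.39 across genes, and under-represented in control replicate 1, at -0.39. In a bulk tissue, fewer cells of a type and less RNA per cell cannot be told apart.

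Promoter sequences were looked at because many replication and repair genes are known targets of E2F, the factor family that drives S phase transcription. RefSeq promoter windows on GRCm38.p6, the assembly that mm10 denotes, were matched for 29 of the 34 genes (33 windows), and the 250 bases before the transcript start of each window were searched on both strands. The E2F letters TTTGGCGC, TTTCGCGC, TTTCCCGC or TTTGCCGC stood in 3 of the 33 windows (9.09%) and in 1.86% of all 32851 windows. They are shown for the 3 genes that hold them, a recombination mediator, a checkpoint kinase and a core complex subunit, with the E2F letters in capitals, 5′ to 3′ on the gene's strand, at chr5:150522445-150522468 (plus strand), chr5:110839823-110839846 (plus strand) and chr4:43010338-43010361 (minus strand). All 3 lie before the transcript start of their promoter window but inside the full extent of the gene in the RefSeq gene table, which begins at 150522297 for Brca2, at 110839800 for Chek2 and, on the minus strand, at 43010567 for Fancg.
Brca2: aggccacaGCGGGAAAcagacaca
Chek2: gattagccGCGGGAAAccaagacg
Fancg: cttttcagTTTCCCGCggaaccgt

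The promoter of Brip1 is shown because Brip1 was the gene of the 34 whose 3 control libraries all lay below the 9 libraries with busulfan. The stretch runs 5′ to 3′ on the gene's strand at chr11:86201216-86201443 (minus strand) and ends before the first annotated base of the gene. Capitals mark 3 CCAAT boxes, here read from the other strand as ATTGG, and 1 half-site of the p53 motif.
Brip1: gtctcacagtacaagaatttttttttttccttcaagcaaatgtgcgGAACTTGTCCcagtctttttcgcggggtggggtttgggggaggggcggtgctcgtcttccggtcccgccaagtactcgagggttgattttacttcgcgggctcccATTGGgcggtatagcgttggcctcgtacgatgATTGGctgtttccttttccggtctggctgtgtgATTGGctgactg

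CCAAT stood in 15 of the 33 windows (45.5%) and in 33.8% of all windows. Brip1, Fancf and Ube2t each held 3 or more CCAAT boxes, as did 2.79% of all windows. The p53 half-site stood in 3 of the 33 windows, those of Brip1, Fanca and Fancg, a share of 9.09% against 7.13% of all windows. TTTGAA, the letters of the cell-cycle element CHR, stood in 0 of the 33 windows and in 15.99% of all. A match describes the letters of these windows and is not evidence that a factor binds there.

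Levels of different genes were compared in TPM, a deposited unit scaled for library size that allows for transcript length. Most of the 34 genes were weakly expressed in the heart: their median was 2.46 TPM over the tested members, against 9.24 TPM over all tested genes. There were 10 genes with a mean over 5 TPM, 12 between 1 and 5 TPM and 12 under 1 TPM. The highest was Ercc1, a subunit of the nuclease that unhooks crosslinks, at 28.7 ± 4.52 TPM (SD over 12 libraries), which put it at the 76.2 percentile of tested genes. Next came Mad2l2, a subunit of the translesion polymerase zeta, at 18.2 ± 1.75 TPM, Mgmt, which removes alkyl groups from guanine directly, at 16.3 ± 2.84 TPM, and Nbn, the NBS1 subunit of the break-binding MRN complex, at 15.1 ± 1.67 TPM. The ranges of these last 3 genes over the libraries overlapped, so their order among themselves lies within the spread.

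At the other end, Fancd2 and Fanci, the partners of the ubiquitinated clamp, had the lowest means, 0.0917 ± 0.0677 and 0.119 ± 0.0769 TPM. Brca1, a ubiquitin ligase that promotes recombination, had 0.213 ± 0.0822 TPM, the helicase Brip1 0.232 ± 0.109 TPM, the recombination mediator Brca2 0.292 ± 0.0918 TPM and the kinase Chek1 0.343 ± 0.141 TPM. The ranges of these 6 genes overlapped from one rank to the next. By contrast Chek2, the kinase that ATM activates, had 5.56 ± 1.03 TPM and the mediator Trp53bp1 6.06 ± 0.480 TPM, and their lowest libraries lay above the highest library of Chek1. Ranked by FPKM, 32 of the 34 genes kept their TPM rank and the largest move was 1 rank.

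**Figure D1:**
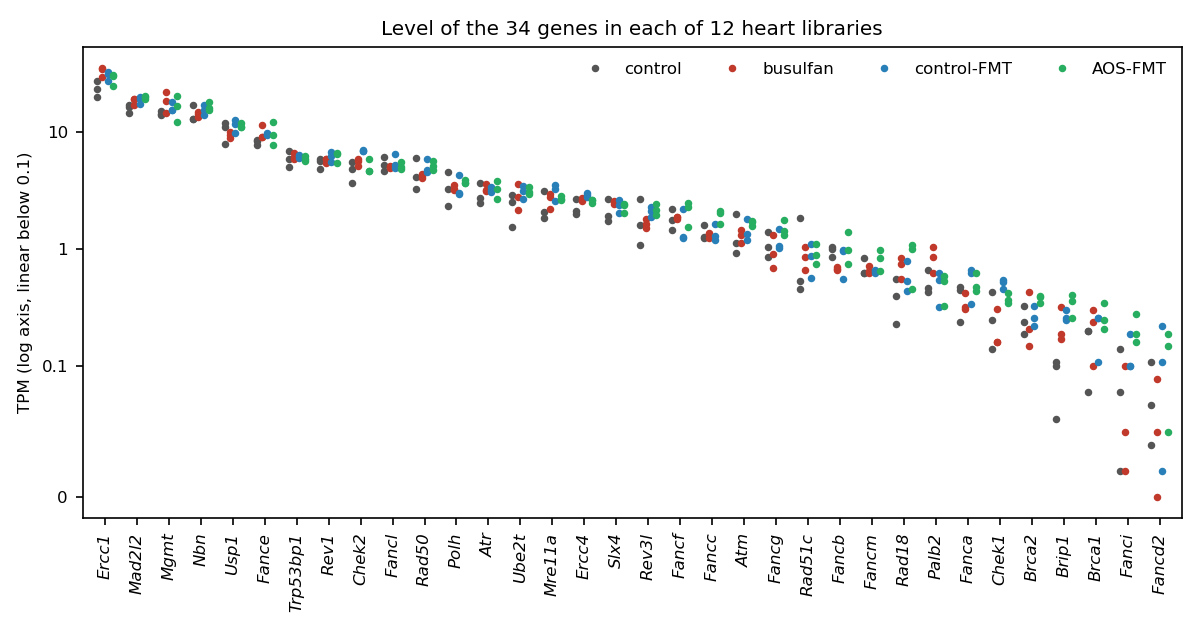
Level of each of the 34 genes in each of 12 heart libraries in TPM (vertical axis, logarithmic above 0.1 and linear below), ordered by mean; each point is 1 library, coloured by group. Ercc1 stands highest at 28.7 TPM on average and Fancd2 lowest at 0.0917 TPM, and the 3 control points of Brip1 lie below its other points.

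Busulfan was first compared with control, to see whether the repair genes responded to the drug. No member passed the test: edgeR's quasi-likelihood test called 0 of 32 at an adjusted p under 0.05, where it called 8 of all 13489 genes (0.0593%). At an unadjusted p under 0.05 there were 2 members, Ercc1 and Brip1, both higher, against 11.3% of all genes. The median log2 fold change was -0.03 over the members and -0.01 over all tested genes, with 15 members above 0 and 17 below. For 25 of the 32 the 95% confidence interval lay within a 2-fold change in either direction, and for 15 it lay within 1.5-fold. The 7 with wider intervals were Fanca, Fancb, Brca1, Palb2, Brip1, Rad18 and Chek1. The libraries of the groups did not overlap for 6 members, against 14.1% of all genes. These were Brip1, Ercc1 and Ercc4, higher in busulfan, and Fancb, Fancc and Fancm, lower. Replicates carry numbers in the labels, with no word on whether each is its own animal, so p-values measure only the spread between these samples.

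All 9 libraries of the busulfan-exposed groups were then set against the 3 controls. Of the 32 members, 0 were called, as were 21 of all genes (0.156%), and 2 had an unadjusted p under 0.05, again Brip1 and Ercc1, against 10.2% of all genes. The median was 0.01 over the members and -0.01 over all genes, and for 29 members the interval lay within 2-fold and for 21 within 1.5-fold. Brip1 was the 1 member whose groups did not overlap, against 1.95% of all genes. In a test of any difference among the 4 groups 0 members were called, as were 14 of all genes (0.104%), and the smallest adjusted p among the members was 0.306, for Brip1.

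**Figure D2:**
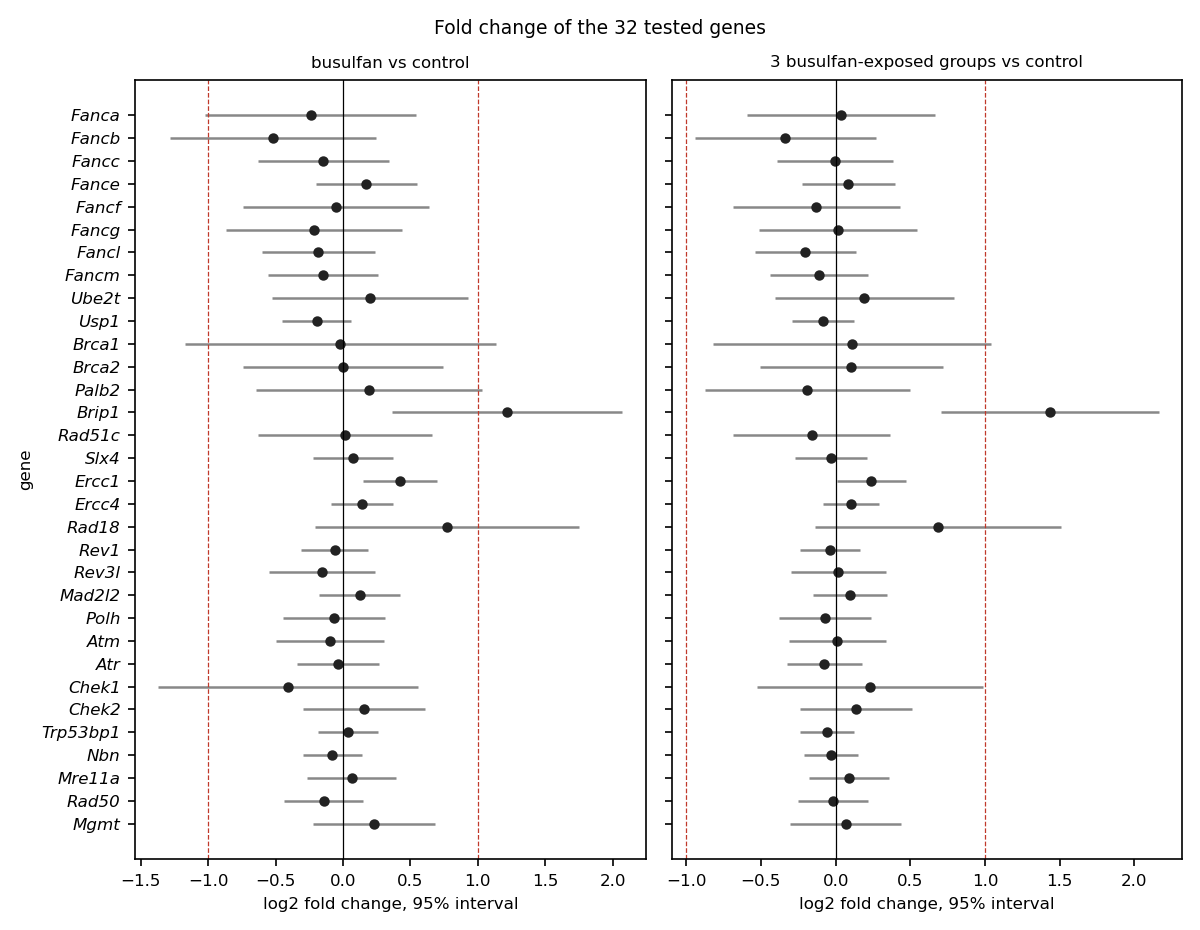
log2 fold change (horizontal axis) with its 95% confidence interval for each of the 32 tested genes, for busulfan against control (left) and the 3 busulfan-exposed groups against control (right); dashed lines mark 2-fold. The intervals lie inside the dashed lines for 25 genes on the left and 29 on the right, and Brip1 stands farthest from 0 at 1.22 and 1.43.

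**Figure D3:**
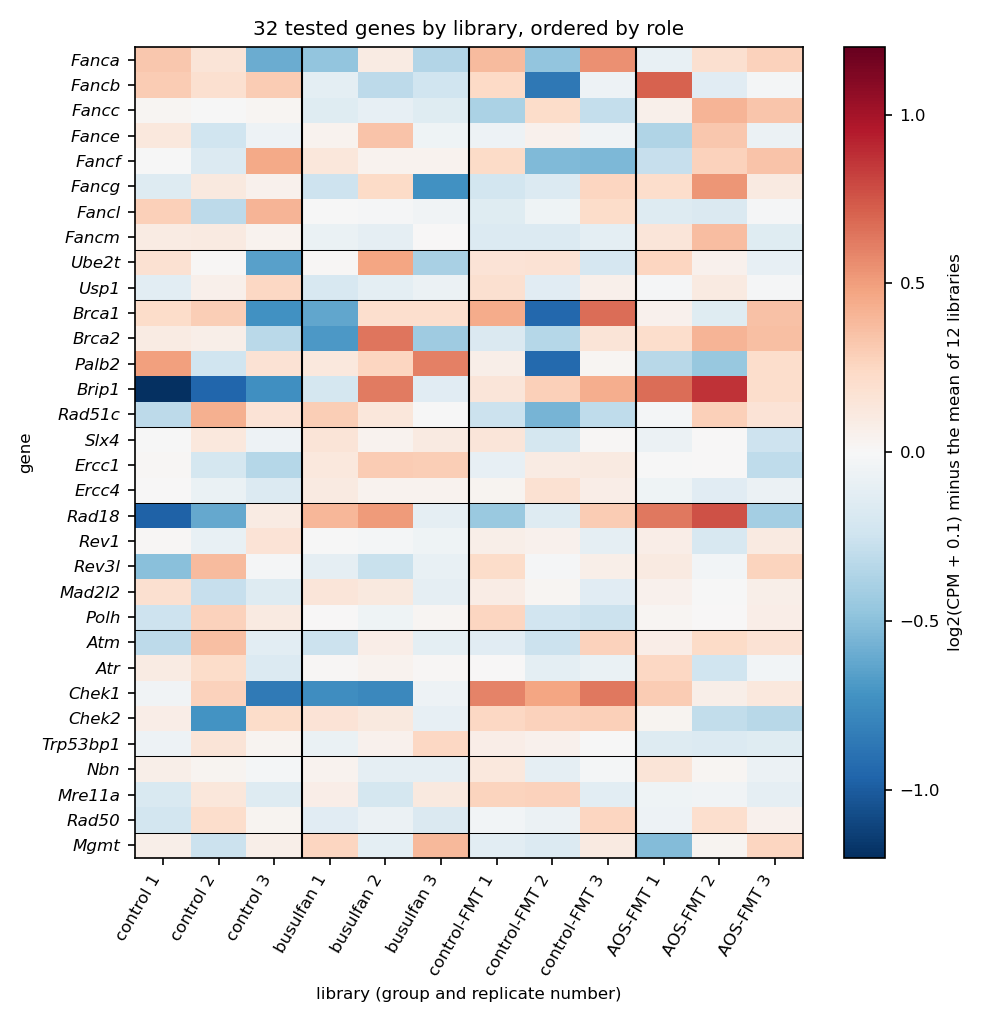
Level of the 32 tested genes (rows, ordered by role) in each library (columns, 3 for each group), as log2(CPM + 0.1) minus the mean over the 12 libraries. Brip1 is low in the 3 control libraries and Chek1 is high in the 3 control-FMT libraries. The spread of the rows within and between groups was not compared.

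The FMT groups gave no call among the members either. In control-FMT against busulfan edgeR called 0 of 32 members and 0 of all genes (0%), and 1 member, Chek1, had an unadjusted p under 0.05, against 2.65% of all genes; DESeq2 called 2 genes and limma-voom 0, none of them a member. For AOS-FMT against busulfan 0 members were called, as were 6 of all genes (0.0445%), and 2 members, Ercc1 and Trp53bp1, had an unadjusted p under 0.05, both lower, against 13.6% of all genes. In AOS-FMT against control-FMT 0 members were called, as were 4 of all genes (0.0297%), and 1 member, Chek2, had an unadjusted p under 0.05, against 6.23% of all genes. The median over the members was 0.02, 0.06 and 0.02 in these 3 comparisons, where the median over all genes was -0.00, 0.00 and 0.00. With scaling by library size alone, the median of all genes shifted by 0.13 in AOS-FMT against busulfan, and the members stood 0.06 above it. Each FMT group was also set against control. For control-FMT edgeR called 0 members and 0 of all genes (0%), where DESeq2 called 92 genes and limma-voom 0. With AOS-FMT edgeR called 0 members and 11 of all genes (0.0815%). DESeq2 and limma-voom called 0 members in each of the 7 comparisons. In edgeR, Brip1 was the only member with an unadjusted p under 0.05 for either FMT group against control. The share of all genes was 8.2% with control-FMT and 8.87% with AOS-FMT. Several of these comparisons share their busulfan or control libraries, so their values are not independent of each other.

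The core complex, which places the ubiquitin, had 8 tested members. In busulfan against control 7 of them lay below 0 (median log2 fold change -0.17), and 5 lay below 0 in the 3 exposed groups together, with a median of -0.06; 0 were called in either. Fancb, the subunit that pairs with the ligase Fancl, had 2.14, 1.97 and 2.14 CPM in control, 1.57, 1.36 and 1.44 CPM in busulfan, 2.04, 0.900 and 1.64 CPM in control-FMT and 2.85, 1.55 and 1.68 CPM in AOS-FMT. Its busulfan libraries all lay below control, while both FMT groups overlapped control. In busulfan Fancb had a log2 fold change of -0.52 ± 0.35 (SE) against control, with an edgeR adjusted p of 0.625.

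Fancl, which carries the RING domain that transfers ubiquitin, had 7.79, 5.09 and 8.49 CPM in control, 6.35, 6.28 and 6.17 CPM in busulfan, 5.72, 6.14 and 7.42 CPM in control-FMT and 5.70, 5.62 and 6.29 CPM in AOS-FMT. Control replicate 2 was the lowest of all libraries and the other controls the highest, so that the controls spanned the range of every other group. In the 3 exposed groups Fancl had a log2 fold change of -0.20 ± 0.16 (edgeR adjusted p = 0.696), or -0.40 ± 0.14 without control replicate 2 (adjusted p = 0.194), and -0.07 ± 0.18 without control replicate 3, and was called in neither. Of its 2724 exon bases, 462 overlap Vrk2 on the opposite strand, whose control libraries had 6.93, 5.39 and 8.88 CPM, so reads of the pair may be mixed.

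Fancc, a subunit that joins FANCE and FANCF within the complex, had 3.34, 3.27 and 3.33 CPM in control, 2.96, 3.05 and 2.96 CPM in busulfan, 2.51, 3.85 and 2.67 CPM in control-FMT and 3.44, 4.39 and 4.17 CPM in AOS-FMT. All AOS-FMT libraries lay above all busulfan libraries, with a log2 fold change of 0.42 ± 0.22 and an edgeR adjusted p of 0.401. For comparisons with a single FMT group, here and below, the share of all genes without overlap was not computed. Fancg, a scaffold subunit, had 2.05, 2.51 and 2.38 CPM in control, 1.91, 2.72 and 1.35 CPM in busulfan, 1.96, 2.05 and 2.76 CPM in control-FMT and 2.68, 3.36 and 2.49 CPM in AOS-FMT. Its AOS-FMT and busulfan libraries overlapped, and their log2 fold change was 0.51 ± 0.30 (adjusted p = 0.434). The other 4 members, Fanca, Fance, Fancf and the translocase Fancm, had log2 fold changes in the 3 exposed groups that lay, with those of the whole role, between -0.34 and 0.09.

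The genes of the clamp itself, Fancd2 and Fanci, fell below the filter on low counts. Fancd2 had 2, 5 and 4 estimated counts in control, 0, 2 and 4 in busulfan, 1, 5 and 9 in control-FMT and 7, 3 and 9 in AOS-FMT. Fanci had 1, 6 and 4 estimated counts in control, 2, 1 and 3 in busulfan, 4, 4 and 7 in control-FMT and 11, 10 and 7 in AOS-FMT. For Fanci the AOS-FMT libraries all lay above the busulfan libraries, while for Fancd2 these groups overlapped. With the filter left out the log2 fold change of AOS-FMT against busulfan was 1.96 ± 0.69 for Fanci (edgeR adjusted p = 0.328) and 1.43 ± 0.92 for Fancd2 (adjusted p = 0.527), and neither gene was called in any comparison. Some 13.4% of the exon bases of Fanci overlap Polg on the opposite strand, and whether the counting used strand is not given in the sources used here, so reads of the pair may be mixed.

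Usp1, the deubiquitinase that takes the ubiquitin off the clamp, was well expressed, at 24.996, 28.4 and 32.4 CPM in control, 23.8, 25.1 and 26.05 CPM in busulfan, 31.3, 24.8 and 28.5 CPM in control-FMT and 26.9997, 29.5 and 26.98 CPM in AOS-FMT. The AOS-FMT libraries lay above those of busulfan, while control overlapped both, and the log2 fold change of busulfan against control was -0.19 ± 0.12 (adjusted p = 0.569). Ube2t, the E2 enzyme of the pathway, ranged from 1.11 CPM in control replicate 3 to 2.55 CPM in busulfan replicate 2.

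Homologous recombination held the member that differed most. Brip1, a DNA helicase that binds BRCA1 and is known as FANCJ, had 0.428, 0.532 and 0.635 CPM in control, 0.957, 1.78 and 1.01 CPM in busulfan, 1.25, 1.39 and 1.55 CPM in control-FMT and 1.84, 2.13 and 1.32 CPM in AOS-FMT. Every control library lay below every busulfan-exposed library. Against control the log2 fold change was 1.22 ± 0.40 for busulfan, 1.38 ± 0.39 for control-FMT and 1.71 ± 0.38 for AOS-FMT, with edgeR adjusted p of 0.318, 0.383 and 0.168, so Brip1 was called in none of them. For the 3 exposed groups together the log2 fold change was 1.43 ± 0.34, a 2.70-fold difference with a 95% interval from 0.70 to 2.17 on the log2 scale, an unadjusted p of 0.0010 and an adjusted p of 0.168.

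Brip1 (NCBI gene 237911) lies on the minus strand of chromosome 11 at 86058136 to 86201215 in GRCm38.p6. Its values rest on few reads, with 5 to 8 estimated counts in the control libraries and 11 to 33 in the exposed ones, and its estimated count was not a whole number in 2 libraries. Markers of proliferating cells were set beside Brip1. Their 24 genes, such as Mki67 and Top2a, had a count in all 12 libraries, and summed to 125 to 129 CPM in control, 118 to 201 CPM in busulfan, 133 to 175 CPM in control-FMT and 159 to 209 CPM in AOS-FMT. The lowest sum of all libraries was that of busulfan replicate 3, at 118 CPM, where Brip1 had 1.01 CPM, above every control. Whether these sums follow Brip1 from library to library was not tested. Against control, 23 of the 24 proliferation markers lay above 0 in the 3 exposed groups, 11 with an unadjusted p under 0.05 and 0 called. Of 7 tested T and NK cell markers 7 lay above 0, 3 with an unadjusted p under 0.05 (median 1.10). Of 13 tested liver markers 10 lay above 0, 8 with an unadjusted p under 0.05 (median 3.23). In either list 0 were called. In the same comparison 10.2% of all genes had an unadjusted p under 0.05. The liver markers Apob, Cps1, Fga and Fgg were each at 0 in some library. Liver sums spanned 58.0 to 154 CPM among the controls, and every exposed group overlapped this range. The exposed sums were 55.9 to 85.7 CPM for busulfan, 64.2 to 105 CPM for control-FMT and 130 to 786 CPM for AOS-FMT. T and NK markers, with Klrb1c at 0 in some library, summed to 6.16 to 7.54 CPM in control and 7.02 to 25.3 CPM in the exposed groups, and their part in the values of Brip1 was not tested. With the proliferation score as a covariate the log2 fold change of Brip1 was 0.97 ± 0.44 (adjusted p = 0.831), and with the liver score 1.99 ± 0.63 (adjusted p = 1.00). Over the 23 settings tried for the 3 exposed groups it lay between 0.97 and 1.99, with adjusted p from 0.0844, in DESeq2, to 1.00.

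The other recombination genes had control libraries that overlapped the exposed ones. Brca1 had 0.856, 0.912 and 0.397 CPM in control, 0.435, 0.849 and 0.846 CPM in busulfan, 1.02, 0.327 and 1.21 CPM in control-FMT and 0.755, 0.645 and 0.951 CPM in AOS-FMT. All 4 groups overlapped, and the log2 fold change of Brca1 in the 3 exposed groups was 0.11 ± 0.43, too wide to exclude a 1.5-fold change either way. Brca2, a mediator of recombination, had 2.48, 2.43 and 1.82 CPM in control, 1.39, 3.65 and 1.69 CPM in busulfan, 2.04, 1.80 and 2.59 CPM in control-FMT and 2.68, 3.10 and 3.00 CPM in AOS-FMT. Busulfan replicate 2 was the highest library for Brca2, and the log2 fold change in the 3 exposed groups was 0.10 ± 0.28.

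Rad51c had 1.28, 2.20 and 1.82 CPM in control, 2.00, 1.78 and 1.61 CPM in busulfan, 1.33, 1.06 and 1.29 CPM in control-FMT and 1.59, 2.00 and 1.83 CPM in AOS-FMT. The control-FMT libraries lay below those of busulfan and of AOS-FMT, with log2 fold changes of -0.54 ± 0.31 against busulfan (edgeR adjusted p = 0.999) and 0.55 ± 0.31 in AOS-FMT against control-FMT (adjusted p = 0.797). Palb2, which bridges BRCA1 and BRCA2, ranged from 0.573 to 1.86 CPM over the 12 libraries.

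Among the nucleases, which cut the crosslink out of the strand, Ercc1 was the member with the smallest p for busulfan against control. It had 19.0, 16.3 and 14.8 CPM in control, 20.6, 23.2 and 23.2 CPM in busulfan, 17.6, 20.2 and 20.4 CPM in control-FMT and 18.8, 18.9 and 15.3 CPM in AOS-FMT. The busulfan libraries lay above all others, and AOS-FMT lay within the range of control. The log2 fold change of Ercc1 was 0.42 ± 0.13, a 1.34-fold difference, for busulfan against control (edgeR adjusted p = 0.299) and -0.34 ± 0.13 for AOS-FMT against busulfan (adjusted p = 0.306), and neither was called. For control-FMT against busulfan it was -0.20 ± 0.13 (adjusted p = 0.999).

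Ercc1 (NCBI gene 13870) lies on the plus strand of chromosome 7 at 19344067 to 19356524. It had 187 to 293 estimated counts in a library, so counting error limits it less than the weaker members. It shares 106 exon bases, 5.91% of its own, with Cd3eap on the opposite strand, and Cd3eap had a log2 fold change of -0.02 ± 0.14 for busulfan against control and -0.27 ± 0.14 for AOS-FMT against busulfan. Ercc4, the catalytic partner of ERCC1, had 13.5, 12.8 and 11.98 CPM in control and 14.5, 13.8 and 13.9 CPM in busulfan, which did not overlap. The 3 nuclease genes, with the scaffold Slx4, lay above 0 in busulfan against control, with a median of 0.14, and below 0 in AOS-FMT against busulfan, with a median of -0.20, with 0 called in each; these contrasts share the busulfan libraries. In the same contrasts cell type markers had median log2 fold changes for busulfan against control and then AOS-FMT against busulfan of -3.25 and 3.10 over 9 atrial genes, -0.49 and 0.72 over 8 fibroblast genes and 0.18 and -0.48 over 12 cardiomyocyte genes. With the atrial score as a covariate Ercc1 stood at 0.40 ± 0.16 for busulfan against control; the part of the other markers was not tested.

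**Figure D4:**
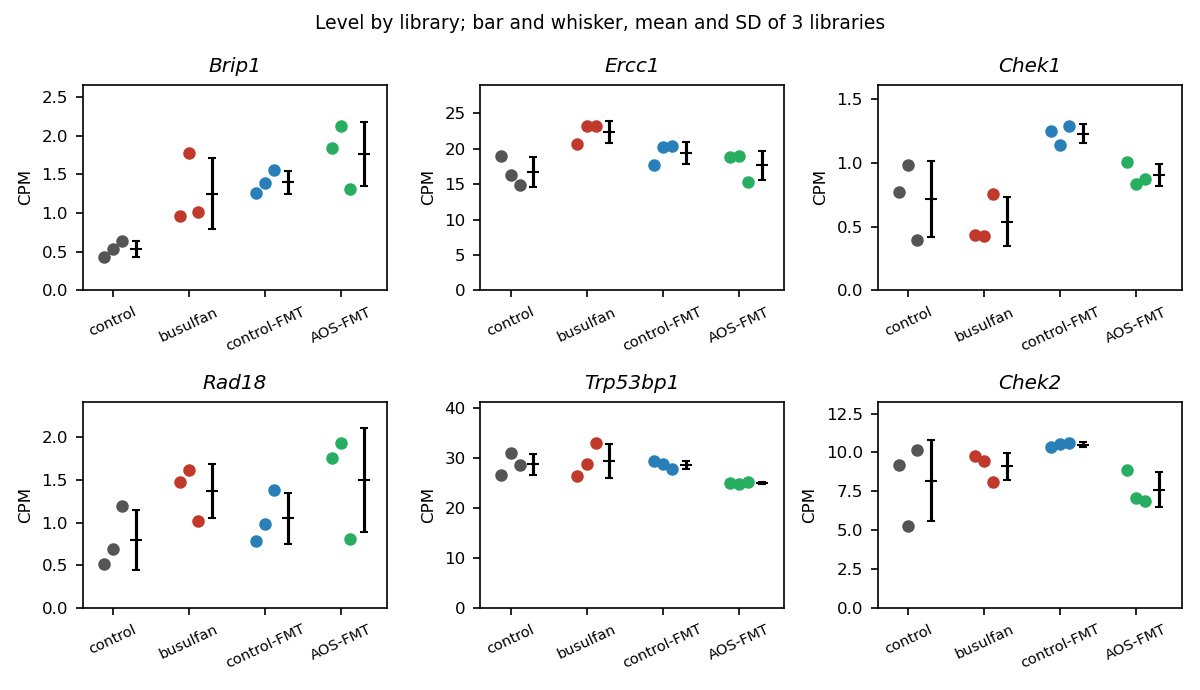
CPM (vertical axis, from 0) of 6 genes in each library, with the 3 libraries of a group as points and their mean and SD as a bar with whiskers. Brip1 is lowest in control, at 0.531 CPM on average, Ercc1 is highest in busulfan, at 22.3 CPM, and Chek1 is highest in control-FMT, at 1.23 CPM.

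In translesion synthesis, the copying of damaged DNA by tolerant polymerases, 0 of 5 members were called and the median log2 fold change was 0.02 in the 3 exposed groups. Rad18, the ligase that marks the sliding clamp PCNA for polymerase exchange, had 0.514, 0.684 and 1.19 CPM in control, 1.48, 1.61 and 1.01 CPM in busulfan, 0.784, 0.982 and 1.38 CPM in control-FMT and 1.76, 1.94 and 0.804 CPM in AOS-FMT. Control replicate 3 and AOS-FMT replicate 3 stood apart from the other libraries of their groups, and all groups overlapped. Rad18 had a log2 fold change of 0.90 ± 0.45 for AOS-FMT against control (adjusted p = 0.596).

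The other 4 members of that role were better expressed. Rev1, the scaffold polymerase, stood at 15.6 to 19.8 CPM, Mad2l2 at 11.5 to 16.01 CPM and Polh, polymerase eta, at 6.82 to 9.88 CPM over the 12 libraries. Rev3l, the catalytic subunit of polymerase zeta, ranged from 11.3 CPM in control replicate 1 to 20.8 CPM in control replicate 2, so the controls alone spanned its whole range. These are the 2 libraries at opposite ends of the transcript length trend, and the part of that trend in the spread of Rev3l was not tested. Of the exon bases of Rev1, 29.1% overlap Eif5b on the opposite strand. Eif5b stood at 127 to 217 CPM over the 12 libraries, so reads of the pair may be mixed.

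The damage kinases and their mediator had 5 tested members, 0 of them called. Atm, which answers double-strand breaks, had 10.8, 17.2 and 12.3 CPM in control, 11.2, 14.2 and 12.3 CPM in busulfan, 12.1, 11.2 and 16.3 CPM in control-FMT and 14.2, 15.7 and 15.1 CPM in AOS-FMT. Its controls covered the range of every other group, and the log2 fold change in the 3 exposed groups was 0.01 ± 0.15. Atr, which answers stalled forks, had 15.0, 16.3 and 12.5 CPM in control, 14.1, 14.4 and 14.1 CPM in busulfan, 14.03, 12.8 and 13.2 CPM in control-FMT and 16.6, 11.8 and 13.7 CPM in AOS-FMT, with a log2 fold change of -0.07 ± 0.12.

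Chek1, the kinase downstream of ATR, had 0.770, 0.988 and 0.397 CPM in control, 0.435, 0.424 and 0.761 CPM in busulfan, 1.25, 1.15 and 1.29 CPM in control-FMT and 1.01, 0.839 and 0.877 CPM in AOS-FMT. Its control-FMT libraries lay above all other libraries. The log2 fold change of Chek1 for control-FMT against busulfan was 1.17 ± 0.43, a 2.25-fold difference, with an unadjusted p of 0.0167 and an edgeR adjusted p of 0.999, from 5 to 9 estimated counts in busulfan and 14 to 16 in control-FMT. Chek2 had 9.16, 5.24 and 10.2 CPM in control, 9.75, 9.42 and 8.12 CPM in busulfan, 10.3, 10.6 and 10.6 CPM in control-FMT and 8.89, 7.04 and 6.87 CPM in AOS-FMT. The AOS-FMT libraries lay below those of control-FMT, with a log2 fold change of -0.47 ± 0.21 (adjusted p = 0.792), and control replicate 2 was the lowest library of all.

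Trp53bp1, which steers breaks towards end joining, had 26.6, 30.9 and 28.5 CPM in control, 26.4, 28.8 and 33.0 CPM in busulfan, 29.4, 28.7 and 27.7 CPM in control-FMT and 24.99, 24.7 and 25.1 CPM in AOS-FMT. The AOS-FMT libraries lay below all others and close together. The log2 fold change of Trp53bp1 was -0.24 ± 0.10 against busulfan (edgeR adjusted p = 0.340) and -0.20 ± 0.10 against control-FMT (adjusted p = 0.797). Of its exon bases, 22.1% overlap Tubgcp4 on the opposite strand, which had a log2 fold change of -0.06 ± 0.13 for AOS-FMT against busulfan.

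The MRN complex binds and trims broken ends, and 0 of its 3 genes were called. Nbn ranged from 25.2 to 30.4 CPM, Rad50 from 15.8 to 22.002 CPM and the nuclease Mre11a from 9.93 to 13.99 CPM over the 12 libraries, and their log2 fold changes in the 3 exposed groups lay between -0.03 and 0.09. Mgmt, the direct reversal enzyme, had 7.62, 6.08 and 7.62 CPM in control, 8.70, 6.70 and 9.56 CPM in busulfan, 6.66, 6.46 and 7.85 CPM in control-FMT and 5.03, 7.42 and 8.70 CPM in AOS-FMT. Its groups all overlapped, and the log2 fold change was 0.23 ± 0.21 in busulfan and 0.07 ± 0.17 in the 3 exposed groups.

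Other genes of DNA repair, in lists beside the 34, gave 0 calls too. In the 3 exposed groups against control 0.156% of all genes were called, so 0 calls do not set such short lists apart from all genes. In the 3 exposed groups against control 0 of 30 other Fanconi and recombination genes, 0 of 22 checkpoint partners, 0 of 22 genes of base excision and alkylation repair, 0 of 19 of nucleotide excision repair, 0 of 7 of mismatch repair and 0 of 11 of end joining were called. Their median log2 fold changes were 0.01, -0.01, -0.01, 0.02, -0.05 and -0.05. The smallest p belonged to Faap100, a partner of FANCB and FANCL in the core complex, at 0.31 ± 0.10 (edgeR adjusted p = 0.296). These 6 lists had 0 calls in each of the other 6 comparisons too, where at most 0.0815% of all genes were called.

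Targets of p53, the factor that the damage kinases activate, were listed beside the repair genes as a readout of the drug. Of 20 targets 3 were called in the 3 exposed groups against control, all higher, against 0.156% of all genes. There were 14 with an unadjusted p under 0.05, all higher, against 10.2% of all genes. The median log2 fold change of the targets was 0.59. Eda2r, a cell surface receptor, rose by 1.30 ± 0.20 (edgeR adjusted p = 0.0246). Cdkn1a, the inhibitor of cyclin-dependent kinases that p53 induces, rose by 0.94 ± 0.11 (edgeR adjusted p = 0.0075). Zmat3, an RNA-binding protein, rose by 0.76 ± 0.12 (edgeR adjusted p = 0.0278). Cdkn1a had 31.3 to 42.7 CPM in the control libraries and 63.3 to 88.7 CPM in the exposed ones. These did not overlap, as was the case for 1.95% of all genes. Mdm2, also a p53 target, stood at 0.08 ± 0.08 (edgeR adjusted p = 0.771). Of the 20 targets 3 lay below 0, the lowest at -0.21. In the same libraries the median of the 32 repair and checkpoint genes was 0.01; the difference between the lists was not tested, and the p53 targets were listed with earlier results of these data known.

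**Figure D5:**
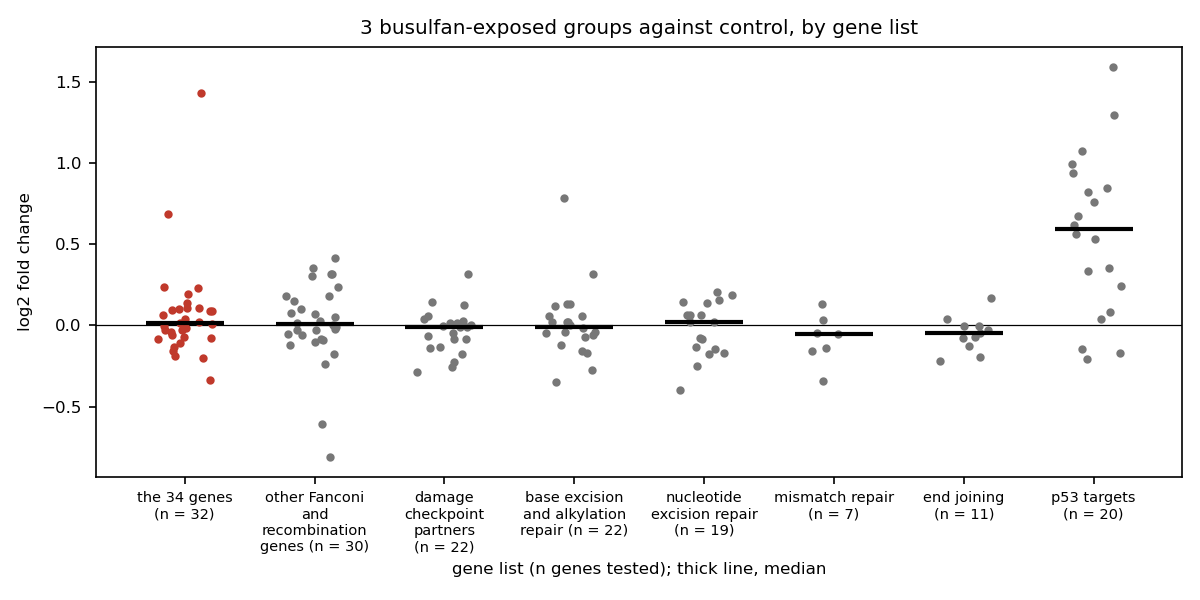
log2 fold change of the 3 busulfan-exposed groups against control (vertical axis) for each tested gene, by gene list (horizontal axis); a thick line marks the median. The 32 tested repair and checkpoint genes and 6 other repair lists have medians between -0.05 and 0.02, while the p53 targets have a median of 0.59.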

How the data were processed

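Heart RNA was measured by RNA-seq in 12 libraries, in 4 groups of 3 taken from the treatment labels. The deposited table held estimated counts, TPM and FPKM per gene, per the file headers. Reads were processed with Bowtie 0.12.2 and build mm10 per the submitters' processing notes. How genes were counted, with which annotation, strand setting and filters, is not given in the sources used here. Estimated counts were whole within 1e-09 for 94.7% to 95.3% of genes per library and were rounded. TPM and FPKM, as deposited by the authors, were used only to compare levels between genes.

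filterByExpr (minimum count 10) left out weakly counted genes, and 13489 genes were fitted over all 12 libraries with TMM scaling and the robust quasi-likelihood test of edgeR 4.0.16 in R 4.3.3, with group as the term. Every adjusted p is a Benjamini-Hochberg value over these genes from edgeR where no other tool is named, and a gene was called under 0.05. CPM are scaled by TMM, and fold changes are log2 values ± SE. DESeq2 1.42.0 and limma-voom (limma 3.58.1) were alternatives. No pair of replicates differed by as little as sampling noise (chi-square per degree of freedom 9.26 to 75.3).

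The 34 genes and all lists were chosen with earlier results of these data known. Values in every library are given for the 2 members with the smallest p in each direction of each comparison and for 9 fixed members. Up to 4 genes of the smallest p were kept per other list. Positions are those of GRCm38.p6, exon overlaps those of GENCODE M21.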

Additional observations from a re-analysis of the deposited data

How the results depend on the processing

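No member was called under any of the 24 settings, and of 224 member results 89 kept their sign in each. The counts of all genes called and the members' medians moved. DESeq2 called 123 genes in busulfan against control, 2 in control-FMT against busulfan, 131 in AOS-FMT against busulfan, 32 in AOS-FMT against control-FMT, 92 in control-FMT against control, 122 in AOS-FMT against control, 137 in the 3 exposed groups and 289 in any difference, and limma-voom 5 in busulfan against control. Without TMM the counts were 0 in busulfan against control, 2 in AOS-FMT against control-FMT and 2 in control-FMT against control, and the members' median was 0.19 in AOS-FMT against busulfan, 0.13 in AOS-FMT against control and 0.10 in control-FMT against busulfan. Control-FMT against control gave 2 with upper quartile scaling, 3 without the filter and 5 with the transcript length trend removed, a setting added after seeing the data. With only the compared libraries the counts were 0 in busulfan against control, AOS-FMT against busulfan and AOS-FMT against control-FMT, 6 in AOS-FMT against control and 2 in control-FMT against busulfan.

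With the atrial score as covariate the counts were 1, 0, 0, 4, 23 and 13 in busulfan against control, AOS-FMT against busulfan, AOS-FMT against control-FMT, control-FMT against control, AOS-FMT against control and the exposed groups, and the members' medians 0.035, -0.0046, -0.061 and 0.078 for the first 4. With the liver score they were 0 for all of those and in any difference, with medians of -0.050 in AOS-FMT against busulfan and -0.033 in AOS-FMT against control. With the proliferation score they were 0 in busulfan against control, 1 in AOS-FMT against busulfan, 2 in AOS-FMT against control-FMT, 0 in AOS-FMT against control (median -0.050), 0 in the exposed groups and 1 in any difference.

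Same-numbered libraries of different groups had correlations from -0.161 to 0.454, with a median of 0.117. Pairs with different numbers ran from -0.444 to 0.342, with a median of -0.043, so the ranges overlapped. Of the 12 libraries, 5 lay closest to their own number. With the replicate block the counts were 14 in AOS-FMT against busulfan, 25 in AOS-FMT against control, 7 in control-FMT against control and 30 in any difference; 0 members were called.

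Leaving out 1 library in turn gave 0 to 14 genes in busulfan against control (0 without control replicate 3, 14 without control replicate 2), 0 to 1 in control-FMT against busulfan, 0 to 20 in AOS-FMT against busulfan, 0 to 4 in AOS-FMT against control-FMT, 0 to 7 in control-FMT against control, 1 to 17 in AOS-FMT against control, 1 to 147 in the exposed groups (1 without control replicate 3, 147 without control replicate 2) and 2 to 32 in any difference. The members' medians ran from -0.051 to 0.051, -0.0026 to 0.087 and -0.055 to 0.043 in busulfan against control, AOS-FMT against control-FMT and control-FMT against control. The causes of these shifts were not tested. Low counts limit Fancd2, Fanci, Brca1, Brip1, Chek1 and Rad18 most.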
